A study of Mus musculus with 12 samples.

Results

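Respiratory complex I is the largest enzyme of the mitochondrial electron transport chain, and its nuclear-encoded subunit genes were examined in calf muscle of mice that lack ankyrin-B in their muscle fibres. The genes were taken by symbol, as every gene of the table whose name starts with Nduf, goes on with a, b, c, s or v and then a digit. This rule found 37 of the 24528 genes in the table, and it uses no measured value. Assembly factors (the Ndufaf genes) are outside the rule, as is Ndufab1, the mitochondrial acyl carrier protein that sits in complex I. Ndufb1 fits the rule by name but is not among the genes of the table under this symbol, so it was not analysed. The rule also takes in Ndufa4, whose product is now assigned to complex IV, and its paralog Ndufa4l2, so 35 of the 37 genes encode complex I subunits.

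The KO group was 6 male mice aged 4 months that carried floxed Ank2 alleles and an HSA-Cre transgene (Ank2f/f; HSA-Cre+). The WT group was 6 male littermates of the same age that carried the floxed alleles without Cre (Ank2f/f). HSA-Cre is driven by the human skeletal alpha-actin promoter, which is active in muscle fibres, so vessels, connective tissue and other non-fibre cells of the muscle keep Ank2. Poly-A RNA of the whole gastrocnemius was sequenced in paired ends with a kit that does not mark strand, and each library is 1 mouse. The question is which transcripts change when fibres lack ankyrin-B, an adaptor between membrane proteins and the spectrin cytoskeleton.

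Complex I takes electrons from NADH, passes them along a chain of iron-sulfur clusters to ubiquinone and pumps protons across the inner mitochondrial membrane. It is built from modules. The N module binds NADH, the Q module reduces ubiquinone, and the proximal and distal parts of the membrane arm carry the proton pumps. The core subunits of the N and Q modules are nuclear genes, those of the membrane arm are encoded in the mitochondrial genome, and the many accessory subunits around them are nuclear. Skeletal muscle is rich in the complex because its fibres depend on oxidative phosphorylation. The mitochondrially encoded subunits were not analysed here.

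The deposited values are on a log2 scale with a shared lowest value of 5.57, and every level and change below is on this scale unless another is named. Depth was estimated from the values, at 13408489 to 18706464 reads in KO libraries and 12283798 to 16907085 reads in WT libraries. All 37 genes passed the filter on low values, as did 12218 genes of the table. Ank2 in KO muscle fell by 1.15 (SE 0.14, adjusted p = 0.00088 by limma with Benjamini-Hochberg adjustment over all tested genes), to 33.1% of the WT mean in scaled reads, and its groups did not overlap. Fast fibre markers were by far the most abundant of the marker lists, as is usual for this muscle. Their summed scaled reads were 2784070 to 3407940 in KO libraries and 2764030 to 3813700 in WT libraries, and 0 of 9 passed the test. All 8 slow fibre markers had estimates below 0, with a median change of -1.83, and 0 of 8 passed the test, the lowest adjusted p being 0.0835 for Myl2. Their summed scaled reads were 1127 to 15499 in KO libraries and 5930 to 58464 in WT libraries. Slow fibres hold more mitochondria than most fast fibres, and the part of this difference in the values below was not tested. In bulk muscle, fewer cells of a type and less RNA per cell cannot be told apart. Single markers of other cells passed the test, where 6.20% of all tested genes did. All 7 endothelial markers had estimates below 0 (median -0.30), and Flt1 fell by 0.50 (adjusted p = 0.0347 by limma). After the correction for transcript length described below, the endothelial median was -0.24. Flt1 then had a change of -0.41 and no longer passed the test (adjusted p = 0.0514 by limma). Of 2 adipocyte markers tested, Adipoq fell by 0.34 (adjusted p = 0.0429 by limma, 0.036 after length correction). Adipoq rests on only 2.99 to 21.2 estimated reads per library, close to the lowest value. The satellite cell marker Cdh15 fell by 0.37 (adjusted p = 0.0342 by limma, 0.0373 after length correction). Its list did not move as 1, since 3 of the 5 markers had estimates above 0 and 2 below (median 0.06). All 6 macrophage markers (median 0.25) and all 5 fibroblast markers (median 0.17) had estimates above 0, with 0 calls. The part of these cells in the values below was not tested.

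The count of called genes over the whole table depended on single libraries. With all libraries 757 genes passed the test. Without KO 1, KO 3 or KO 6 it was 272, 225 or 194, and without WT 1, WT 2, WT 3, WT 5 or WT 6 it was 367, 207, 205, 317 or 366. Without KO 2 it was 1514, and no other omission moved it by over 1.5 times.

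No complex I subunit gene passed the test between KO and WT muscle. Of the 37 genes, 0 were higher and 0 were lower in KO at an adjusted p of 0.05 or less (limma), where 6.20% of all tested genes were called (3.12% higher and 3.08% lower in KO). At an unadjusted p of 0.05 or less there were 8 genes, 5 higher and 3 lower in KO, or 21.6% of the 37 against 26.0% of all tested genes. The estimated changes ran from -0.28 for Ndufs1 to 0.29 for Ndufa2. Standard errors were 0.0752 to 0.137, and the 95% intervals of the 37 genes all lay between -0.51 and 0.53, which is 0.703 to 1.44 times the WT level on the scale of the deposited values. Of these intervals, 29 include 0, 5 lie above it and 3 lie below it. For no gene of the 37 were the KO and WT ranges separate, where 2.47% of all tested genes had separate ranges.

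The estimates nevertheless leaned to one side. They were above 0 for 29 of the 37 genes (78.4%) and below 0 for 8, with a median of 0.10, against 47.6% above 0 and a median of -0.01 over all tested genes. In scaled reads, the KO mean of single genes was 82.1% to 124% of the WT mean. Of the 28 accessory subunits, 24 had estimates above 0, with a median of 0.12, and of the 7 core subunits 4 did, with a median of 0.02. After the correction for transcript length described below, the accessory median was 0.01, with 15 estimates above 0 and 13 below. The corrected core median was -0.02. The difference between these classes was not tested. Spread between mice had a median SD of 0.18 in KO and 0.167 in WT, and the SD was larger in KO for 24 of the 37 genes.

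**Figure D1:**
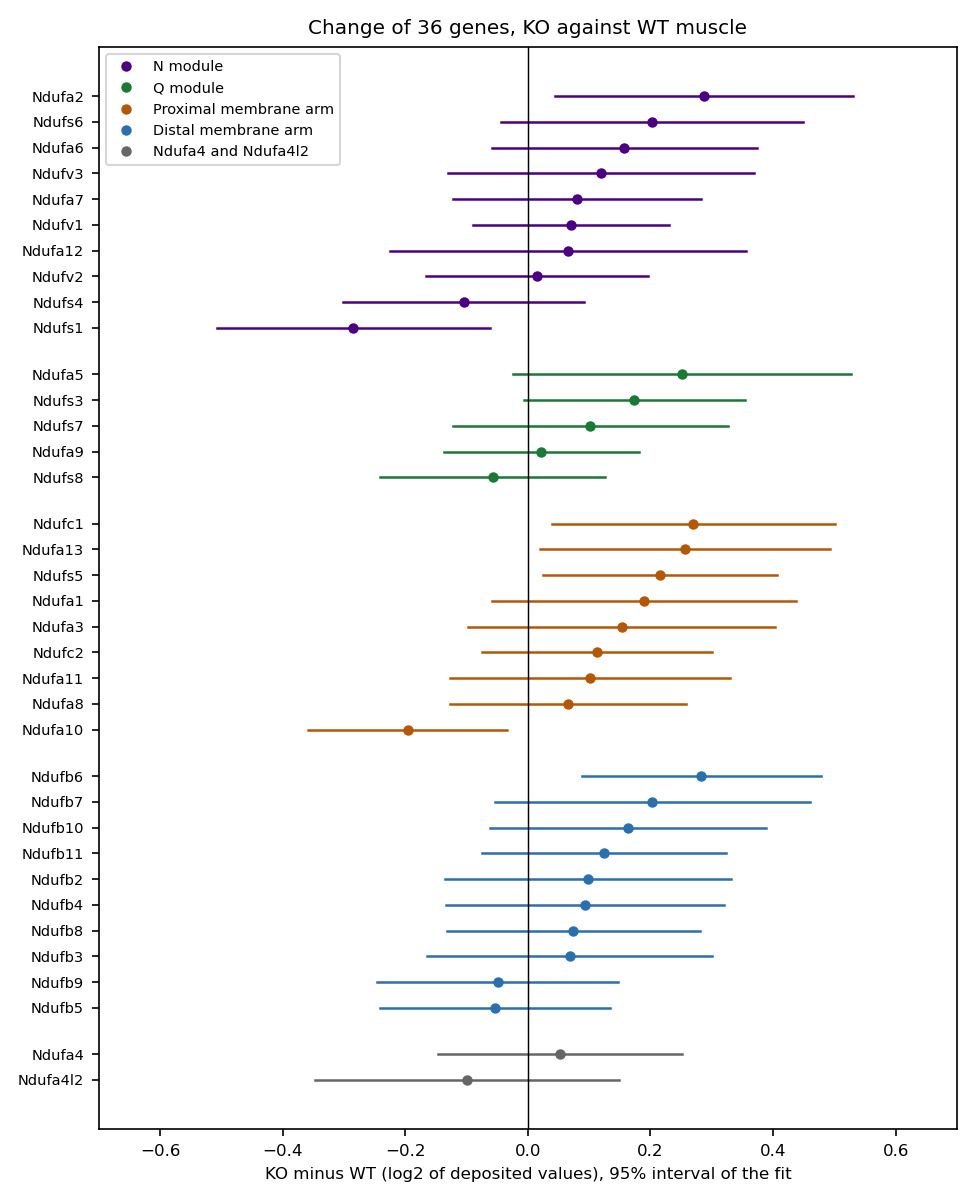
Change of 36 of the 37 genes between KO and WT muscle in deposited log2 units (x axis), grouped by module of complex I (y axis), with points for the estimate and bars for its 95% interval over 6 mice per group. Most points lie right of 0, 29 of the 36 intervals include 0, and the lowest estimate is that of Ndufs1 at -0.28.

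The N module takes electrons from NADH, and 8 of its 10 genes had estimates above 0, with a median of 0.08. Its largest core subunit, Ndufs1, carries several of the iron-sulfur clusters and had the lowest estimate of all 37 genes. Ndufs1 (chr1:63143596-63176833, minus strand, mm10) had a lowest, median and highest value of 11.90, 12.27 and 12.53 in KO muscle, against 12.32, 12.58 and 12.70 in WT muscle. In 4 KO mice Ndufs1 lay below all WT mice, and the other KO mice lay within the WT range. Its mean was 12.25 ± 0.21 in KO and 12.54 ± 0.16 in WT (SD, n = 6 each). The change was -0.28 (SE 0.11) with an adjusted p of 0.108 by limma and an exact two-sided permutation p of 0.0216, where the smallest p that 6 against 6 libraries allow is 0.00216.

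Ndufa2, an accessory subunit of the N module with a thioredoxin-like fold, was at the other end. Ndufa2 (chr18:36742332-36744557, minus strand) had values of 10.93, 11.31 and 11.54 in KO muscle (lowest, median and highest), against 10.71, 11.00 and 11.25 in WT muscle. Here 4 KO mice lay above all WT mice and KO 4, the lowest of its group, lay below the WT median. The change was 0.29 (SE 0.12, adjusted p = 0.131 by limma, exact permutation p = 0.0455).

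Among the other core subunits of the N module, Ndufv1, which binds FMN and is the entry point of NADH, had a change of 0.07 (SE 0.08), and Ndufv2, which holds the cluster beside it, one of 0.02 (SE 0.09). The accessory subunits Ndufs6, which binds zinc, and Ndufa6, an LYR-motif protein that docks the acyl carrier protein, had changes of 0.20 (SE 0.12) and 0.16 (SE 0.10). Ndufv3, Ndufa7 and Ndufa12 had changes of 0.12, 0.08 and 0.07. Ndufs4, whose loss causes a Leigh-like encephalopathy in mice, had a change of -0.10 (SE 0.09). None of these passed the test, with adjusted p-values of 0.28 or more by limma.

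Ndufa12 stood apart from the other genes in which mice were high. Its values in KO 1 to KO 6 were 11.87, 11.85, 11.26, 11.04, 11.63 and 11.73, and those of WT mice ran from 11.28 to 11.81. So KO 1 and KO 2 lay above all WT mice and KO 3 and KO 4 below them, although KO 3 was above its group mean for 36 of the 37 genes. Its SE of 0.137 was the highest of the 37.

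The Q module carries the last iron-sulfur clusters and the ubiquinone site, and 4 of its 6 genes had estimates above 0, with a median of 0.06. None of its genes passed the test, and those named here had adjusted p-values of 0.208 or more by limma. Ndufs7, which holds the cluster that hands electrons to ubiquinone, had a change of 0.10 (SE 0.11), and the core subunits Ndufs3 and Ndufs8 had changes of 0.17 (SE 0.09) and -0.06 (SE 0.09). Ndufa5, an accessory subunit on the peripheral arm, had a change of 0.25 with the wide SE of 0.13. Ndufa9, an accessory subunit that binds a nucleotide cofactor beside the ubiquinone site, had a change of 0.02 with the lowest SE of the 37 genes, 0.0752.

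The 9 nuclear genes of the proximal membrane arm are all accessory, and 8 of them had estimates above 0, with a median of 0.15. The exception was Ndufa10, a protein related to deoxyribonucleoside kinases. Ndufa10 (chr1:92439010-92473860, minus strand) had values of 11.34, 11.52 and 11.61 in KO muscle (lowest, median and highest), against 11.54, 11.73 and 11.77 in WT muscle. In 4 KO mice it lay below all WT mice. The change was -0.20 (SE 0.08, adjusted p = 0.124 by limma, exact permutation p = 0.013).

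Small membrane subunits of this arm had estimates on the other side. Ndufc1 (chr3:51404677-51408988, minus strand) had values of 10.68, 11.08 and 11.28 in KO muscle (lowest, median and highest), against 10.59, 10.76 and 11.02 in WT muscle. In 3 KO mice, Ndufc1 lay above all WT mice and in KO 4 below the WT median. The change was 0.27 (SE 0.11, adjusted p = 0.134 by limma, exact permutation p = 0.0433), and without KO 4 its adjusted p was 0.0479, on the other side of the threshold. Ndufc1 passed in only this 1 of the 26 alternatives, and its highest adjusted p was 0.445 (limma).

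Ndufs5, which lies on the intermembrane-space side, had values of 9.75, 10.03 and 10.17 in KO muscle, against 9.63, 9.79 and 10.00 in WT muscle (lowest, median and highest, chr4:123712710-123718202, minus strand). Its groups overlapped in the same way, with 3 KO mice above all WT mice. The change was 0.22 (SE 0.09, adjusted p = 0.148 by limma, exact permutation p = 0.0455).

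Ndufa13, also known as GRIM-19 and linked to cell death signalling, had values of 11.88, 12.25 and 12.44 in KO muscle, against 11.72, 11.88 and 12.26 in WT muscle (lowest, median and highest, chr8:69894180-69902558, minus strand). Again 3 KO mice lay above all WT mice. The change was 0.26 (SE 0.11, adjusted p = 0.161 by limma, exact permutation p = 0.0649). The other subunits of the proximal arm, Ndufa1, Ndufa3, Ndufc2, Ndufa11 and Ndufa8, had changes of 0.19, 0.15, 0.11, 0.10 and 0.07, with adjusted p-values of 0.316 or more by limma.

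The 10 genes of the distal membrane arm include the smallest p of the 37, that of Ndufb6, a single-pass membrane subunit. Ndufb6 (chr4:40270591-40279421, minus strand) had values of 10.52, 10.90 and 11.00 in KO muscle (lowest, median and highest), against 10.41, 10.51 and 10.74 in WT muscle. All 6 KO mice lay above the WT median and 4 lay above all WT mice. Its mean was 10.83 ± 0.19 in KO and 10.55 ± 0.12 in WT (SD, n = 6 each). The change was 0.28 (SE 0.09), with an adjusted p of 0.074 by limma and an exact permutation p of 0.0173. Without KO 4 its adjusted p was 0.0292, past the threshold, and it also passed after quantile normalization (0.0448) and with library quality weights (0.0476). In only these 3 of the 26 alternatives was its adjusted p 0.05 or less, and the highest was 0.184 (limma).

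The rest of the distal arm had estimates from -0.05 to 0.20, with adjusted p-values of 0.301 or more by limma. Ndufb7 and Ndufb10, which sit on the intermembrane-space face with cysteine-rich folds, had changes of 0.20 (SE 0.12) and 0.16 (SE 0.11). Ndufb11 had one of 0.12, Ndufb2 one of 0.10, Ndufb4 one of 0.09, Ndufb8 one of 0.07 and Ndufb3 one of 0.07. Ndufb5 and Ndufb9, the second an LYR-motif protein, had changes of -0.05 each. Over the whole distal arm 8 of 10 estimates were above 0, with a median of 0.10.

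**Figure D2:**
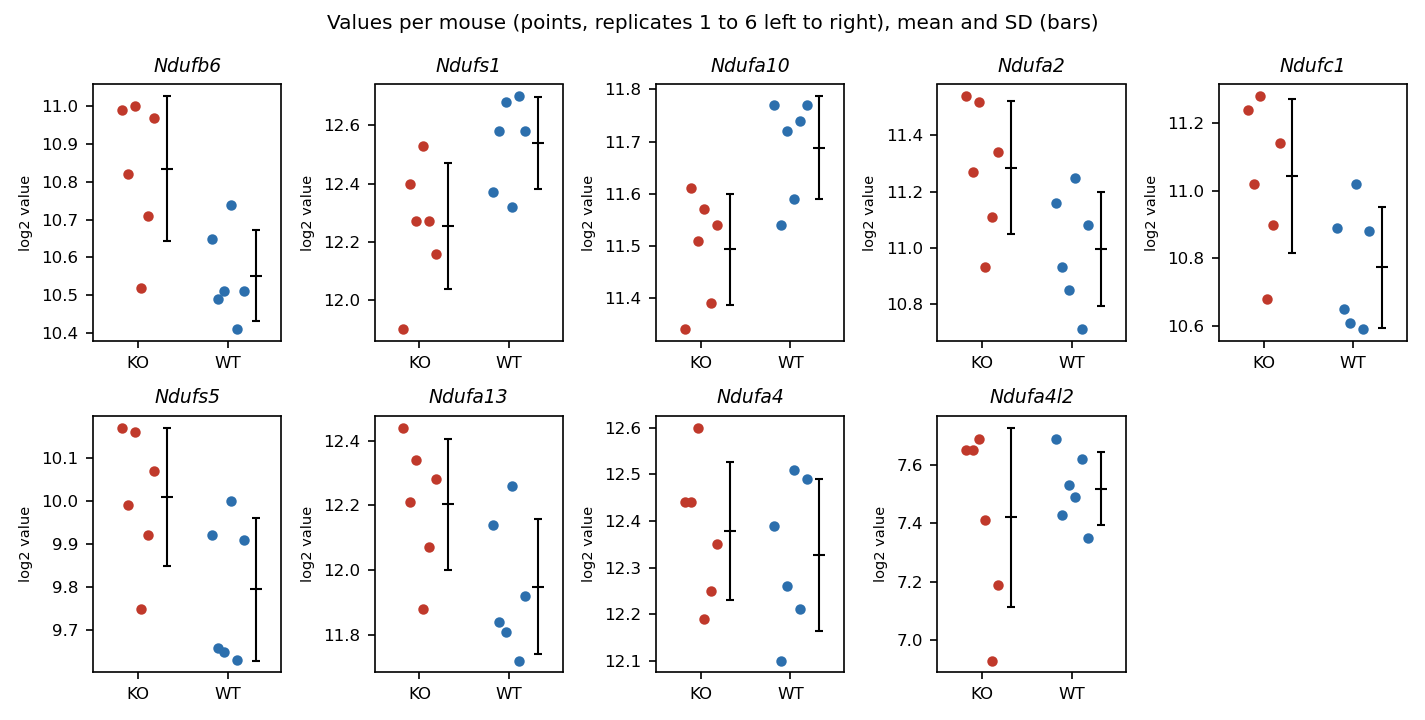
Deposited log2 value of each library (points, KO left of WT) for 7 genes with small p and for Ndufa4 and Ndufa4l2, with a bar for the group mean and its SD over 6 mice. The groups overlap in every panel, with 4 KO mice above all WT mice for Ndufb6 and 4 KO mice below all WT mice for Ndufs1.

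The 2 genes that carry the name but do not encode complex I subunits differed most in level. Ndufa4 (chr6:11900292-11907497, minus strand) had values of 12.19, 12.40 and 12.60 in KO muscle (lowest, median and highest), against 12.10, 12.32 and 12.51 in WT muscle. The groups covered nearly the same range, with a change of 0.05 (SE 0.09, adjusted p = 0.755 by limma). Ndufa4l2 is a hypoxia-inducible paralog that was first described as a target of HIF-1. Ndufa4l2 (chr10:127514967-127517154, plus strand) had values of 6.93, 7.53 and 7.69 in KO muscle, against 7.35, 7.51 and 7.69 in WT muscle (lowest, median and highest). KO 5 and KO 6 lay below all WT mice and the others within the WT range, and the change was -0.10 (SE 0.12, adjusted p = 0.62 by limma). It rests on 45.7 to 139 estimated reads per library, where a difference of the deposited values understates a fold change.

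Levels between genes were compared in scaled reads per kilobase of transcript. By this measure Ndufa4 was the highest of the 37, at 11628 ± 1211 in KO and 11219 ± 1292 in WT (SD, n = 6 each). Within complex I the highest was Ndufb9, at 7658 ± 748 in KO and 7944 ± 929 in WT, and Ndufb8 was at 7267 ± 835 in KO and 6898 ± 817 in WT. Ndufa4 lay above both by more than its SD. At the lower end of the complex stood Ndufv3, at 1081 ± 140 in KO and 999 ± 203 in WT, and Ndufb4, at 1197 ± 172 in KO and 1116 ± 172 in WT. Subunits that occur in equal number in the assembled complex thus differed several-fold in transcript level, in KO and WT muscle alike.

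Ndufa4l2 was lowest of all 37, at 99.4 ± 33.6 in KO and 109 ± 15.9 in WT. The other 36 genes had at least 590 estimated reads in every library. Even the lowest of their WT means on the deposited scale was above that of 80.9% of all tested genes.

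The 37 genes moved together from mouse to mouse within each group. In KO 3, 36 of the 37 genes were above the KO mean, followed by KO 1 with 30, KO 2 with 27 and KO 6 with 21, whereas KO 5 had 6 and KO 4 had 2. In WT mice the split was as sharp, with 35 in WT 1, 30 each in WT 4 and WT 6, and 5, 4 and 2 in WT 3, WT 5 and WT 2. Averaged over the 37 genes, libraries ran from 11.07 to 11.48 in KO and from 11.09 to 11.36 in WT. The KO range thus contained the whole WT range. The 37 estimates therefore share their libraries and are not independent of each other.

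**Figure D3:**
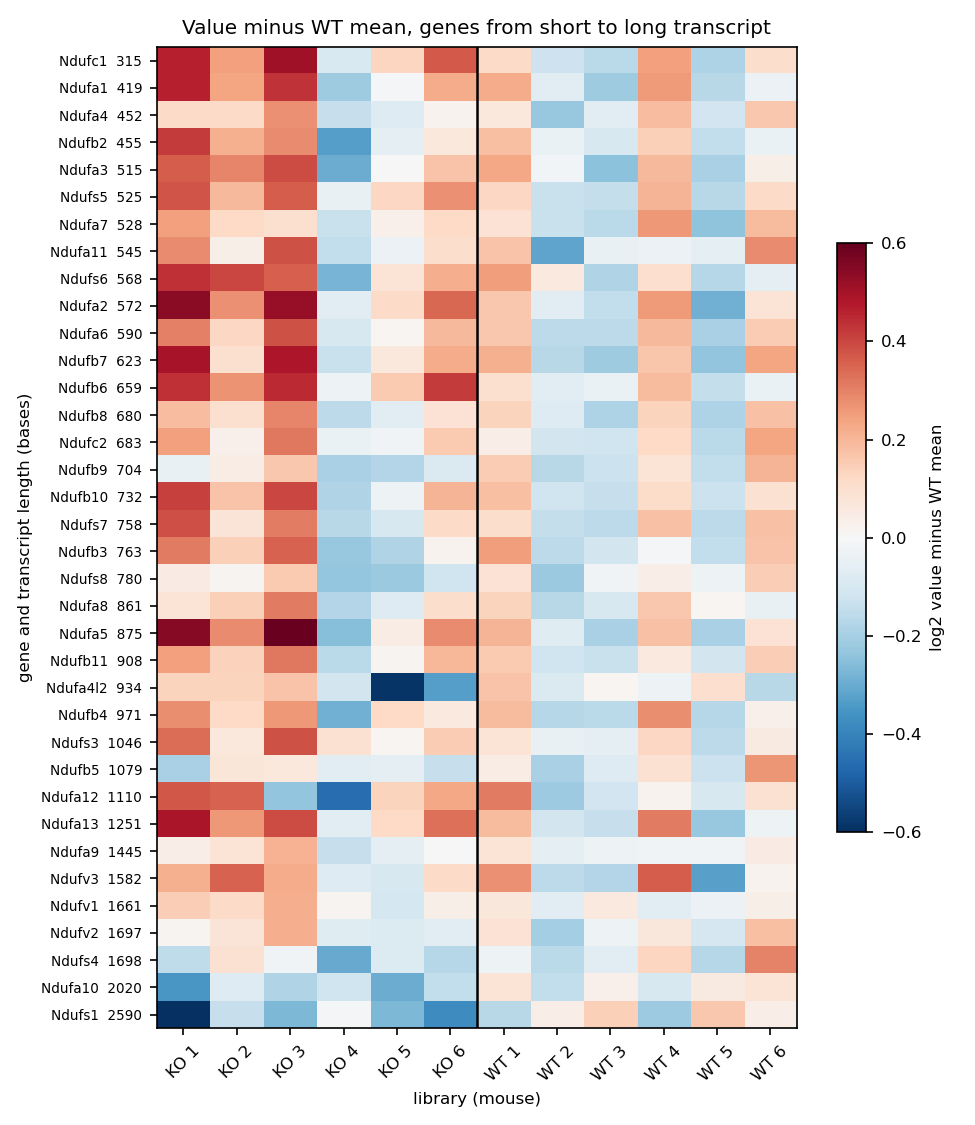
Deviation of each deposited log2 value from the mean of the WT group (colour scale, log2 units) for 36 of the 37 genes (rows, from the shortest transcript at the top to the longest, with its length in bases) in the 12 libraries (columns, KO left of WT). KO 1 and KO 3 are high and KO 4 and WT 5 low in most of the upper rows, and the colours of KO 1 turn round in the lowest rows, Ndufa10 and Ndufs1.

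The genes of complex I have short transcripts, and the estimates followed transcript length. The lengths of the 37 transcripts ran from 315 to 2590 bases with a median of 763, against a median of 2823 over all tested genes. Across the 37 genes, the change and log2 length had a Pearson correlation of -0.64, and across all tested genes one of -0.26. These are descriptions, since genes share libraries and are not replicates. All 11 of the genes under 600 bases had estimates above 0, and both genes over 2000 bases, Ndufs1 and Ndufa10, had estimates below 0.

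Other short transcripts leaned the same way. The 25 genes under 1000 bases had a median change of 0.11 with 22 above 0, and all 896 tested genes under 1000 bases had a median of 0.10 with 73.4% above 0. The 12 genes of 1000 bases or more had a median of 0.02 with 7 above 0, and the 11092 tested genes of that length had a median of -0.02 with 45.3% above 0. Under 600 bases the medians were 0.16 for the 11 genes and 0.15 for the 209 tested genes of that length. After correction of each library for transcript length, the median of the 37 genes was -0.01, with 17 estimates above 0 and 20 below, and none passed the test. The corrected medians were 0.01 for the N module, -0.02 for the Q module, 0.01 for the proximal arm and -0.02 for the distal arm.

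**Figure D4:**
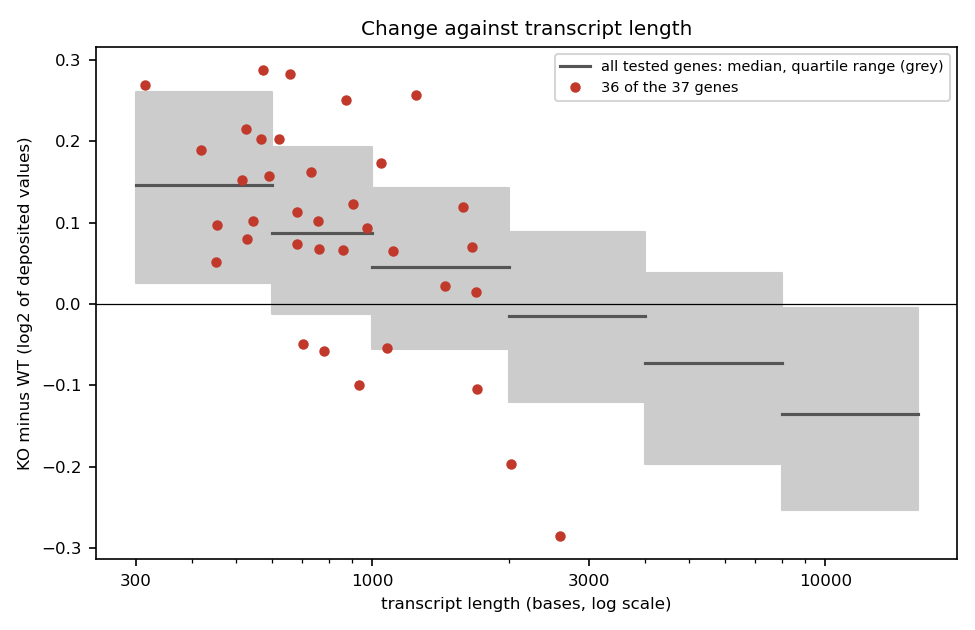
Change between KO and WT muscle (y axis, deposited log2 units) against transcript length (x axis, log scale, bases) for 36 of the 37 genes (points), with the median and quartiles of all tested genes in length bins. The genes follow the bins up to 2000 bases, and Ndufs1 and Ndufa10 lie below the median of their bin.

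The same libraries that were high for short complex I genes were high for other short genes. Taken against the WT mean, the median of the 25 short genes was 0.31, 0.13, 0.35, -0.16, -0.01 and 0.16 in KO 1 to KO 6. For the 871 other tested genes under 1000 bases it was 0.22, 0.09, 0.18, -0.04, 0.04 and 0.14 in the same libraries. For tested genes of 4000 bases or more it was -0.15, -0.04, -0.11, 0.00, -0.04 and -0.11. The order was alike in WT mice, where WT 1, WT 4 and WT 6 were above 0 for both sets of short genes and below 0 for long ones, and WT 2, WT 3 and WT 5 the reverse. A measure of RNA integrity was not used here.

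After the length correction Ndufb6 had a corrected change of 0.16 (adjusted p = 0.113 by limma), Ndufa2 one of 0.16 (0.178), Ndufa13 one of 0.19 (0.177) and Ndufc1 one of 0.09 (0.333). Ndufs1 had a corrected change of -0.28 (adjusted p = 0.0961 by limma) and Ndufa10 one of -0.21 (0.0774), close to their uncorrected changes. After correction for GC content in place of length, the median of the 37 genes was 0.08.

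Sequence around the start sites was read for the 32 genes with an entry in RefSeq's promoter windows (GRCm38.p6, 250 bases before to 50 after the annotated start). The motifs searched on both strands were those of factors known to act on respiratory chain genes, namely NRF1 (GCGCATGC), ETS factors such as GABP (CCGGAAG), YY1 (AAGATGGC) and ERR receptors (TCAAGGTCA). None of these 4 strings contains another. The YY1 letters were in 7 of 32 windows (21.9%), against 5.45% of tested genes and 3.19% of all genes with a window. The ETS letters were in 4 of 32 (12.5%), those of Ndufb6, Ndufb7, Ndufs3 and Ndufs8, against 20.1% of tested genes and 9.93% of all genes. The NRF1 letters were in 3 of 32 (9.38%), those of Ndufa11, Ndufa6 and Ndufa8, against 6.06% of tested genes and 3.05% of all genes. The ERR letters were in 0 of 32, against 0.316% of tested genes and 0.466% of all genes.

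The YY1 letters are shown because they were found in more of these genes than the other 3 strings searched, always on the gene's own strand and 23 to 39 bases after the annotated start. They contain ATG, and whether that is the start codon was not examined. Each line gives 30 bases from 5′ to 3′ on the gene's strand, with the letters in capitals.
Ndufa3 (chr7:3617384-3617413, plus): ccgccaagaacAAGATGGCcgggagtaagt
Ndufa9 (chr6:126849097-126849126, minus): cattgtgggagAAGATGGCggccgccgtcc
Ndufb8 (chr19:44555393-44555422, minus): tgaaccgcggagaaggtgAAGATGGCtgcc
Ndufc1 (chr3:51408915-51408944, minus): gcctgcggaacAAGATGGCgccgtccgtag
Ndufs4 (chr13:114388045-114388074, minus): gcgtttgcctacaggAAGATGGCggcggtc
Ndufs6 (chr13:73328433-73328462, minus): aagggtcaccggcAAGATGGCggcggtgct
Ndufs7 (chr10:80249462-80249491, plus): aggccgaggccAAGATGGCggcgctggcgg

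Genes with and without these letters had the same median change between KO and WT muscle. The 7 genes with them had a median of 0.10 and ran from -0.10 to 0.27, with 6 above 0. The 25 other genes with a window had a median of 0.10 and ran from -0.20 to 0.28, with 22 above 0. A match is a stretch of letters, not a measured binding site.

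One factor needed to build complex I did differ. Timmdc1, a membrane protein that helps assemble the proximal membrane arm, fell in KO muscle and was the only call among the 16 assembly factors tested. That is 6.25% of them, near the 6.20% called over all tested genes, so the list as a whole does not stand out. Timmdc1 (chr16:38498347-38522663, minus strand) had values of 8.09, 9.18, 8.29, 8.49, 8.72 and 8.52 in KO 1 to KO 6, against 9.12, 9.17, 9.21, 9.13, 9.22 and 9.19 in WT 1 to WT 6. In 5 KO mice it lay below all WT mice, and KO 2 lay within the narrow WT range. The mean was 8.55 ± 0.38 in KO and 9.18 ± 0.04 in WT (SD, n = 6 each), and in scaled reads KO muscle held 60.9% of the WT mean. The change was -0.63 (SE 0.13, adjusted p = 0.0183 by limma, exact permutation p = 0.00866). It was called under each of the 26 alternatives, with adjusted p-values from 0.000133 to 0.0488. KO 2 is the library that sets its size most, since the change without it was -0.75.

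The other 15 assembly factors did not pass the test, and over all 16 the estimates were above 0 for 8 and below 0 for 8, with a median of -0.01. Ndufaf3, which works with Ndufaf4 on the Q module, had a change of 0.22 (adjusted p = 0.101 by limma), and Foxred1, an oxidoreductase needed for mid-assembly, one of 0.16 (0.112). Tmem186 and Acad9, both part of the assembly complex of the membrane arm, had changes of -0.17 (0.116) and -0.18 (0.145). In Acad9 and Tmem186 5 KO mice each lay below all WT mice, whereas in Foxred1 5 and in Ndufaf3 4 KO mice lay above all WT mice. Of the other members of that complex, Ecsit had a change of -0.09, Tmem126b one of -0.07 and Ndufaf1 one of 0.06. Ndufab1 had a change of -0.04 (adjusted p = 0.81 by limma).

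**Figure D5:**
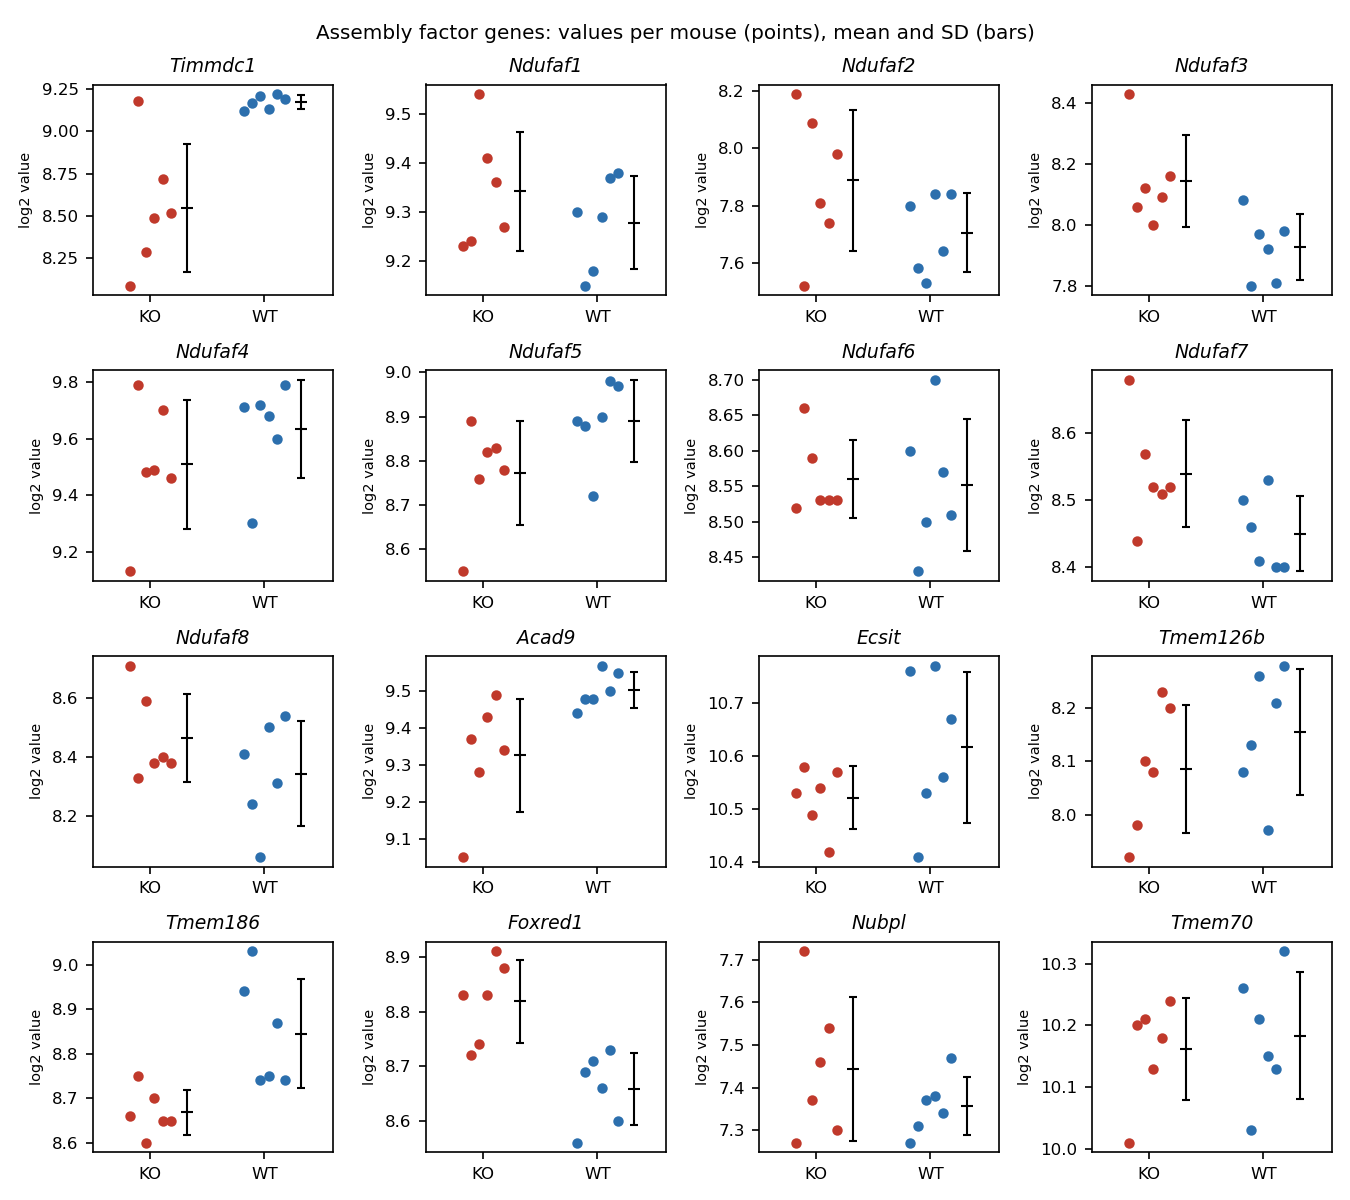
Deposited log2 value of each library (points, KO left of WT) for Timmdc1 and the other assembly factors shown, with a bar for the group mean and its SD over 6 mice. Timmdc1 is lower in 5 of 6 KO mice than in any WT mouse, while KO 2 stands at 9.18 among the WT values.

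The nuclear genes listed here for the other respiratory complexes likewise gave no call, where 6.20% of all tested genes were called. In complex II, all 4 estimates were below 0 with a median of -0.12, and Sdhc, a membrane anchor, had the smallest p (change -0.12, adjusted p = 0.299 by limma). In complex III, 5 of 9 were above 0 with a median of 0.08, and Uqcrc2, a core protein, had a change of -0.16 (0.24). In complex IV, all 12 listed genes were above 0 with a median of 0.05, and Cox8b, the muscle isoform of a small subunit, had a change of 0.29 (0.179). In complex V, ATP synthase, 10 of 15 were above 0 with a median of 0.02. Its gene Atp5c1, the gamma subunit of the rotor, had a change of -0.17 (adjusted p = 0.167 by limma), and its KO values, 12.58 to 12.80, all lay below its WT values, 12.82 to 12.93. Such separate ranges were found for 2.47% of all tested genes. After length correction the medians were -0.12, -0.06, -0.03 and -0.03 for complexes II, III, IV and V, next to -0.01 for the 37 genes.

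Among regulators of mitochondrial genes, 10 of 11 estimates were below 0, with a median of -0.09, as were 6408 of all 12218 tested genes. Esrrb, an orphan nuclear receptor of the ERR family, was the only call, 9.09% of the list against 6.20% of all tested genes. Its values were 6.04 to 6.84 in KO muscle and 6.52 to 7.59 in WT muscle, with a change of -0.64 (SE 0.17, adjusted p = 0.0446 by limma). In scaled reads KO muscle held 33.6% of the WT mean, and on scales that do not compress low values the change of Esrrb was -1.57 to -1.63 (adjusted p = 0.0607 to 0.0753 by limma). It rests on 5.03 to 97.1 estimated reads per library and did not pass the test in 15 of the 25 alternatives that could be computed for it.

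Several exons of these genes overlap those of neighbours, and without strand their reads cannot be told apart. This holds for 16 of the 37 genes, of which 11 share bases with a tested gene. The largest shares of a gene's annotated exonic length were 39.0% for Ndufb6, shared with Smim27, and 29.98% for Ndufa13, shared with Tssk6. Smim27 and Tssk6 were not among the tested genes. Among the other genes described in full, Ndufa2 shares 11.5% with Tmco6, Ndufs1 shares 6.05% with Ino80dos and Ndufa4l2 shares 2.92% with Shmt2. Ndufb9, the highest of complex I by level, shares 19.5% with Gm49356, which was not among the tested genes either. Genes annotated under related names (Ndufa11b, Ndufb4c and Ndufs6b) make the values of Ndufa11, Ndufb4 and Ndufs6 uncertain to the extent that reads were shared with them. These were found by name, and their sequences were not compared.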

How the data were processed

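The authors deposited 1 table of log2 values for 12 libraries. Per the submitters' processing notes, fastp, STAR and featureCounts were run on mm10. For annotation, normalization and transformation, nothing is given in the sources used here. The lowest value, 5.57, is the same in all columns, the shape of a variance-stabilizing transformation, so differences between low values are compressed. Estimated reads were obtained by inverting that transformation, with the smallest step as 1 read. Between 89.4% and 93.7% of low values came within 0.1 of a whole number. These reads served for the filter (10 or more in at least 6 libraries), depth, levels and some alternatives. The deposited values were fitted with limma 3.58.1 (R 4.3.3) on group, with variance trend and robust moderation, and two-sided p-values were adjusted by the Benjamini-Hochberg method at 0.05 over 12218 genes. The fit was also tested on simulated data. Estimated depth was 16178647 ± 1809823 reads in KO and 14140261 ± 1795277 in WT (SD between libraries, n = 6 each). Positions and lengths (shortest principal transcript) come from GENCODE M21, with a length for 98.1% of tested genes.

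By rule all genes were to be named, with per-library values or their range for the 8 smallest p-values, Ndufa4, Ndufa4l2, the highest and lowest level, and calls or the smallest p of each other list. For 1 of the 37 genes, included in every count, single results are not reported here. The 26 alternatives covered filters, scalings, tests, weights, length and GC corrections, a replicate block and each library left out. The GC correction was added after seeing the data. The genes and lists were chosen with earlier results of these data known.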

Additional observations from a re-analysis of the deposited data

How the results depend on the processing

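Over the 26 alternatives 22 of the 37 genes kept the sign of their change, and the lowest adjusted p of any of them ran from 0.0292 to 0.164 (limma). Quantile normalization turned Ndufb5 to 0.044, Ndufb9 to 0.042 and Ndufs8 to 0.011, left 5 estimates below 0 and called 1 gene higher (Ndufb6, 0.35). Length correction, alone or with the replicate block, put 20 estimates below 0 and turned Ndufa11 to -0.034, Ndufa12 to -0.0094, Ndufa4 to -0.10, Ndufa7 to -0.058, Ndufa8 to -0.0298, Ndufa9 to -0.028, Ndufb2 to -0.052, Ndufb3 to -0.039, Ndufb8 to -0.043, Ndufc2 to -0.00405, Ndufs7 to -0.0055 and Ndufv2 to -0.017. Library quality weights called 614 genes of the table lower in KO, and 1 of the 37 higher (Ndufb6). At a threshold of 0.1 there were 739 genes higher and 868 lower, and 1 of the 37 (Ndufb6). The cause of these shifts was not tested. Leaving out each library in turn gave 106 to 681 genes higher and 88 to 833 lower in KO, 0 to 2 of the 37 higher, 8 to 10 estimates below 0 and a median of 0.06 to 0.15. Ndufa9 then ran from -0.015 to 0.054 and Ndufv2 from -0.025 to 0.051. Without KO 2 the counts were 681 and 833, and without KO 4 the 2 genes Ndufb6 and Ndufc1 were called. Replicate numbers showed no clear pairing of the libraries. Same-numbered libraries had correlations of -0.36 to 0.29, and 2 of 6 KO libraries correlated best with their own number. So few libraries cannot exclude a pairing. With the replicate block 357 genes were higher and 456 lower, and 0 of the 37 were called. Of the 37 genes, Ndufa4l2 alone had fewer than 590 estimated reads in any library, so counting error weighs most on it.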
